A study of Mus musculus with 12 samples.

Results

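The 6 arrays of undifferentiated mouse embryonic stem cells (ESCs), out of 12 arrays in the study, were compared by replicate number: the 3 arrays titled biological replicate 2 against the 3 titled biological replicate 1. Each set of 3 held 1 array per genotype label. The labels were WT (line HM1), HP1aKO (Cbx5-/-, line R1) and HP1bKO (Cbx1-/-, line R1), so that each of the 3 pairs shared a genotype label, which entered the fit as a block. Cbx5 and Cbx1 encode the heterochromatin proteins HP1alpha and HP1beta. No sample received a treatment. All ESCs were grown in LIF-containing medium on gelatin with a layer of mitotically inactivated mouse embryonic fibroblasts (feeders) and, according to the study's methods, were enriched with magnetic beads for the surface antigen SSEA1. The other 6 arrays held embryoid bodies (EBs) of day 7, with the same genotype labels and replicate numbers. EBs are aggregates grown in suspension without LIF. The sources do not say whether the replicates were separate thaws, passages or days. A replicate number therefore cannot be told apart from any batch of culture, cell sorting or hybridisation that went with it, and p-values measure the spread between these samples only. Both knockouts carry the line name R1 and the WT the name HM1, a difference that lies between pairs and not within them.

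ESCs in serum and LIF are a mixture of states. Naive cells express Esrrb, Klf4, Tfcp2l1 and Prdm14 and resemble the early epiblast of the blastocyst, whereas formative and primed cells resemble the epiblast after implantation, with genes such as Fgf5, Dnmt3b and Otx2, and precede the primitive streak stage marked by Eomes and Mixl1. Pou5f1 and Sox2 are expressed in both. Feeder fibroblasts express fibrillar collagens, collagen cross-linking enzymes and contractile proteins, and a residue of them adds their RNA to that of the ESCs.

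The targeted genes were read first. Cbx1 gave log2 signals of 7.59 and 7.99 in the libraries labelled HP1bKO and between 9.45 and 10.05 in the other 4 libraries, as its labels state. Cbx5 gave 8.04 in the library labelled HP1aKO replicate 1 but 9.99 in the library labelled HP1aKO replicate 2, and 8.29 in the library labelled WT replicate 2 against 9.66 in WT replicate 1. Cbx5 thus went against the label in both of these replicate 2 libraries, whereas both libraries labelled HP1bKO had 9.72 and 9.88. If these libraries were exchanged, the mean difference between replicate numbers would be the same, since both belong to replicate 2, but its pairing and its error would change. For this reason the difference in the HP1bKO pair, which includes neither library, is given beside the main results.

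Replicate number ordered the arrays on the main axis of variance. Across 10114 genes whose signal passed log2 of 45 on at least 1 of the 6 arrays, the first principal component held 53.4% of the variance and placed the replicate 1 arrays at -22.8 (WT), -10 (HP1aKO) and -24 (HP1bKO) and the replicate 2 arrays at 29.8, 25.6 and 1.4. No replicate 2 array lay below a replicate 1 array on this axis. Arrays that shared a replicate number correlated across genes at 0.967 to 0.981, and arrays that shared a genotype label at 0.928 to 0.967. Arrays that shared neither reached from 0.928 to 0.974, and the highest of these was HP1aKO replicate 1 with HP1bKO replicate 2, which was closer to that array than to either of the other replicate 2 arrays (0.968 and 0.967). Differences in the 3 pairs share no array, and across genes they correlated at 0.401 between WT and HP1aKO, 0.51 between WT and HP1bKO and 0.306 between HP1aKO and HP1bKO. These values run across genes, which are not independent replicates. The pairs differed in size, with an SD over genes of 0.58 in WT, 0.502 in HP1aKO and 0.396 in HP1bKO.

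At a limma adjusted p under 0.05, 59 of the 10114 genes were called (0.583%), of which 21 were higher (0.208%) and 38 lower (0.376%) in replicate 2. In the same fit 1853 genes had an unadjusted p under 0.05 and 321 an adjusted p under 0.1. All 59 called genes changed in the same direction in each pair, and in 58 of them the 2 sets of arrays did not overlap. The 58 were all but Actc1, which encodes cardiac actin and lay at 8.45 and 6.92 in the HP1bKO pair but between 5.37 and 6.80 in the other 4 arrays. In the HP1bKO pair alone, all 59 had the same sign and 58 differed at least 2-fold. That pair, like the other pairs, entered the fit that called the 59. Agreement in sign between pairs therefore follows largely from the calling and is no separate support. Across all tested genes, 2707 did not overlap between the sets (26.8%), with 1594 higher (15.8%) and 1113 lower (11%) in replicate 2, and the median difference was 0.04. In all 3 pairs 2456 genes were higher (24.3%) and 1806 lower (17.9%) in replicate 2. These shares are the background for the counts of each gene list. At least 1.5-fold differences in the same direction in all 3 pairs were found for 274 genes (2.71%), which include all 59. The number of calls depended on which pairs entered: 62 genes were called without the WT pair, and 0 without the HP1aKO pair or without the HP1bKO pair, where limma gave 1481 and 1638 genes at an unadjusted p under 0.05. In 25 of the called genes 1 of the 2 means lay under log2 of 45, so that the fold change of these genes depends on a dim signal. At the edge of the threshold, Zbtb32, Igfbp7 and Lox lay just inside with adjusted p of 0.0478, 0.0478 and 0.0488, and Tpbg, Snord47 and Snora21 lay just outside with 0.0504 each.

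**Figure D1:**
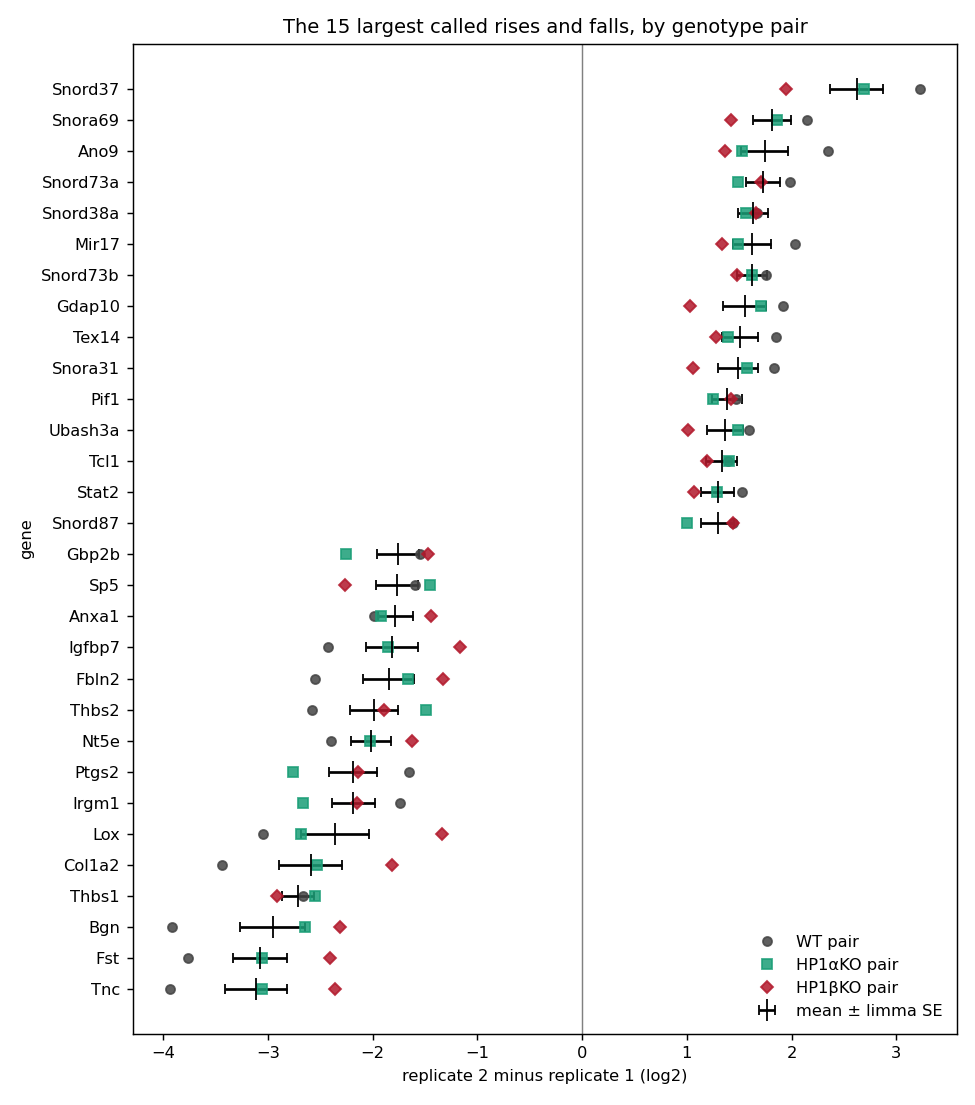
Difference of replicate 2 minus replicate 1 on the log2 scale for the 15 largest rises and 15 largest falls among the called genes. Points give the WT, HP1aKO and HP1bKO pair, and the bar gives the mean with its limma standard error over 3 pairs. Only genes with the same sign in all 3 pairs were eligible. By that rule every point of the 15 rises lies right of 0 and every point of the 15 falls left of 0. The means run from 2.62 for Snord37 to -3.11 for Tnc.

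The largest falls held several genes of the extracellular matrix, 2 of which (Col1a2 and Lox) belong to a fibroblast list described with its counts. Thbs1, which encodes the matrix glycoprotein thrombospondin 1, measured 9.28, 9.16 and 9.35 in replicate 1 of WT, HP1aKO and HP1bKO and 6.61, 6.60 and 6.44 in replicate 2. The 3 pairs were nearly alike, and Thbs1 had the smallest adjusted p of all genes (log2 difference -2.71, SE 0.15, limma adjusted p = 0.0127). Tnc, which encodes tenascin C, measured 7.58, 7.21 and 6.35 in replicate 1 and 3.65, 4.15 and 3.99 in replicate 2 (-3.11, SE 0.29, adjusted p = 0.0317). All 3 replicate 2 values of Tnc were under the floor of 5.49, which is log2 of 45. Col1a2, a chain of collagen I, measured 9.10, 8.30 and 7.71 in replicate 1 and 5.66, 5.77 and 5.89 in replicate 2 (-2.59, SE 0.30, adjusted p = 0.0348). Its replicate 1 values were spread over more than 1 log2 unit in the order WT, HP1aKO, HP1bKO, and its replicate 2 values lay close together, near the floor. Bgn, which encodes the proteoglycan biglycan, fell by 2.96 (SE 0.31), Lox, which encodes the collagen cross-linking enzyme lysyl oxidase, fell by 2.36 (SE 0.32), and Thbs2 fell by 1.99 (SE 0.23). All replicate 2 values of Bgn, Lox and Thbs2 were under the floor, as was Lox in HP1bKO replicate 1 (4.92), so the sizes of these falls rest on dim signals. Fbln2 (fibulin 2) fell by 1.85, and Igfbp7, a secreted binding protein of insulin-like growth factors, fell by 1.81.

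Of the 26 tested genes of a feeder fibroblast list, 6 fell (Col1a2, Lox, Cav1, Tagln, Timp3 and Loxl1) and none rose, and 22 were lower without overlap. Over all tested genes 0.376% fell and 11% were lower without overlap. Of the 26, 9 were under the floor on all replicate 2 arrays and so passed the filter through replicate 1, where they were brighter. The median of the list was -1.13 beside 0.04 for all genes, with medians of -1.54 in the WT pair, -1.02 in the HP1aKO pair and -0.71 in the HP1bKO pair. Over the list's genes above the floor on all 6 arrays it was -0.83. Acta2, smooth muscle actin, measured 9.92, 9.18 and 8.34 in replicate 1 and 6.61, 6.65 and 7.14 in replicate 2, with an adjusted p of 0.0624. Dcn (decorin) and Col1a1 likewise did not overlap, at -1.89 (adjusted p = 0.0834) and -1.86 (adjusted p = 0.0635). Fibronectin (Fn1) was higher in replicate 2, at 0.55 with an adjusted p of 0.148. The mean level of the list was 7.53, 6.99 and 6.75 in replicate 1 of WT, HP1aKO and HP1bKO and between 5.93 and 5.99 in replicate 2, where part of the list was at dim signals. EBs, which form mesenchymal cells of their own, had 7.62 to 8.24.

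Of 13 markers taken as defining feeder fibroblasts, 11 passed the filter. Their mean level was 5.92 to 6.93 in replicate 1 and 4.88 to 5.08, under the floor, in replicate 2. Without overlap 10 of the 11 were lower, beside 11% of all tested genes. Of the 11, 5 were under the floor on all replicate 2 arrays and passed the filter through replicate 1. That favours lower values in replicate 2 and less overlap. Lum and S100a4 stayed under the floor on all 6 arrays, with highest values of 3.99 and 5.26. The 9 markers taken as defining ESCs had mean levels of 10.11 to 10.42 in replicate 1 and 10.50 to 10.86 in replicate 2, and 6.31 to 7.99 in EBs, so the labelled cell type held in both sets. In bulk RNA, fewer cells of a type and less RNA per cell cannot be told apart. The part of feeder RNA in any of the falls was not tested.

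A list of 20 genes of smooth muscle and the actomyosin cytoskeleton, which shares members such as Tagln with the fibroblast list, had 3 falls (Anxa1, Tagln and Ccn1), 13 genes lower without overlap and a median of -0.73. Over all tested genes 11% were lower without overlap. Its mean level was 8.09 to 8.43 in replicate 1 and 7.33 to 7.49 in replicate 2. Ccn1, a matricellular protein gene induced by serum and by mechanical tension, measured 9.17, 9.38 and 10.63 in replicate 1 and 8.06, 8.25 and 9.04 in replicate 2 (-1.28, SE 0.17, adjusted p = 0.0431). Unlike Col1a2, Ccn1 was highest in the HP1bKO pair on both sides. Anxa1, a phospholipid-binding protein gene, fell by 1.78, and Tagln, the actin-binding transgelin, by 1.56. Ptgs2 (cyclooxygenase 2) fell by 2.19, Nt5e (the ectonucleotidase CD73) by 2.02 and Has2 (hyaluronan synthase 2) by 1.43. Ptgs2 and Nt5e were under the floor on all replicate 2 arrays.

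**Figure D2:**
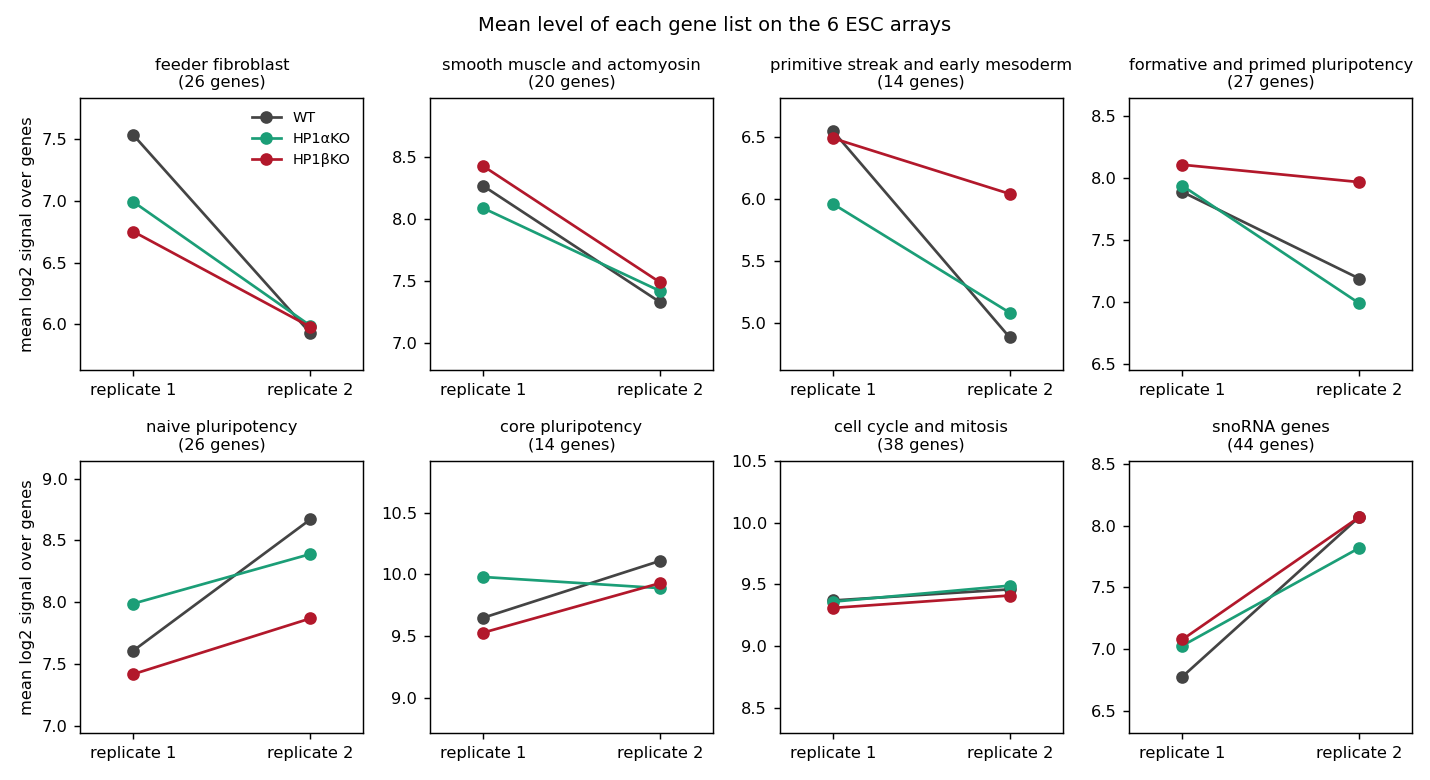
Mean log2 signal over the tested genes of 8 lists on the 6 ESC arrays, with each line joining replicate 1 to replicate 2 of a genotype label. All panels span 2.2 log2 units. All 3 lines end lower in replicate 2 in the fibroblast, actomyosin, primitive streak and formative panels and higher in the naive, cell cycle and snoRNA panels, while the core pluripotency panel has 1 line that ends lower (HP1aKO, 9.98 to 9.89).

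Among genes of the naive state, higher values in replicate 2 outnumbered lower ones, although few genes passed the test. Of 26 tested naive genes 1 rose and none fell, 9 were higher without overlap, 18 were higher in all 3 pairs and 2 (Gbx2 and Myc) were lower in all 3. Over all tested genes 15.8% were higher without overlap, 24.3% higher in all 3 pairs and 17.9% lower in all 3. The median of the list was 0.69, with 1.05, 0.41 and 0.37 in the WT, HP1aKO and HP1bKO pair. The gene that rose was Tcl1, which encodes a coactivator of the kinase Akt: it measured 6.98, 7.07 and 6.50 in replicate 1 and 8.38, 8.47 and 7.70 in replicate 2 (1.33, SE 0.14, adjusted p = 0.0333). Every replicate 2 value was above every replicate 1 value, and the HP1bKO array was lowest on both sides. Klf4, a transcription factor downstream of LIF, measured 7.21, 7.68 and 7.08 in replicate 1 and 8.73, 8.69 and 8.03 in replicate 2 (1.16, adjusted p = 0.0545). Esrrb, an orphan nuclear receptor, measured 8.29, 8.90 and 8.26 against 9.76, 9.64 and 9.07 (1.00, adjusted p = 0.0832). Both were free of overlap and short of the threshold. Lifr, the LIF receptor subunit, differed by 0.89 (adjusted p = 0.0633), and Tet2, which oxidises 5-methylcytosine, by 1.08 (adjusted p = 0.069).

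Other naive genes separated the pairs. Tfcp2l1, a transcription factor of the naive network, was 1.07 and 1.72 higher in replicate 2 of WT and HP1aKO but 0.46 higher in HP1bKO. Prdm14, which represses Fgf signalling and DNA methyltransferase genes, measured 5.16, 4.98 and 5.13 in replicate 1 and 6.82, 6.42 and 5.44 in replicate 2, so that its HP1bKO replicate 2 value stayed under the floor. Among 14 tested core pluripotency genes 5 were higher without overlap, beside 15.8% of all tested genes. The median was 0.29 and none was called. Pou5f1 was level in all 6 arrays, between 11.24 and 11.35. Nanog measured 10.33, 10.41 and 10.44 in replicate 1 and 11.10, 11.01 and 10.46 in replicate 2 (adjusted p = 0.272), which put nearly all of its difference in the WT and HP1aKO pairs. A list of 19 LIF and Stat3 target genes, which shares members with the naive list, held no call and had a median of 0.43. Of the 19, 4 were higher without overlap, beside 15.8% of all tested genes.

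No gene of the formative and primed list passed the test, and lower values in replicate 2 outnumbered higher ones. Of 27 tested genes 5 were lower without overlap, beside 11% of all tested genes. In all 3 pairs 15 of the 27 were lower, beside 17.9% of all tested genes, and none was higher, beside 24.3%. The median of the list was -0.68. The pair medians were -0.55 in WT, -0.89 in HP1aKO and -0.18 in HP1bKO, where 16 genes were lower and 11 higher. Over the genes above the floor on all 6 arrays the median was -0.35. Wnt8a, which encodes a Wnt ligand of the epiblast, measured 8.57, 7.89 and 7.54 in replicate 1 and 5.24, 5.40 and 6.48 in replicate 2 (-2.29, adjusted p = 0.0702). Dusp6, the Erk phosphatase induced by Fgf signalling, measured 9.0, 8.91 and 9.37 against 7.85, 8.05 and 8.47 (-0.98, adjusted p = 0.0566). Fgf5, the classic marker of the primed epiblast, measured 9.11, 8.19 and 9.80 in replicate 1 and 6.42, 6.99 and 9.13 in replicate 2, and here the HP1bKO replicate 2 array exceeded the WT replicate 1 array. Otx2, a transcription factor of the same transition, measured 8.57, 8.98 and 9.43 against 8.88, 8.12 and 9.96, with the HP1aKO pair opposite in sign to the other pairs and a mean difference of -0.01. Zic2 and Lef1 did not overlap, at -1.12 (adjusted p = 0.0848) and -1.11 (adjusted p = 0.096), and Dnmt3b, a de novo DNA methyltransferase, overlapped at -0.78.

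**Figure D3:**
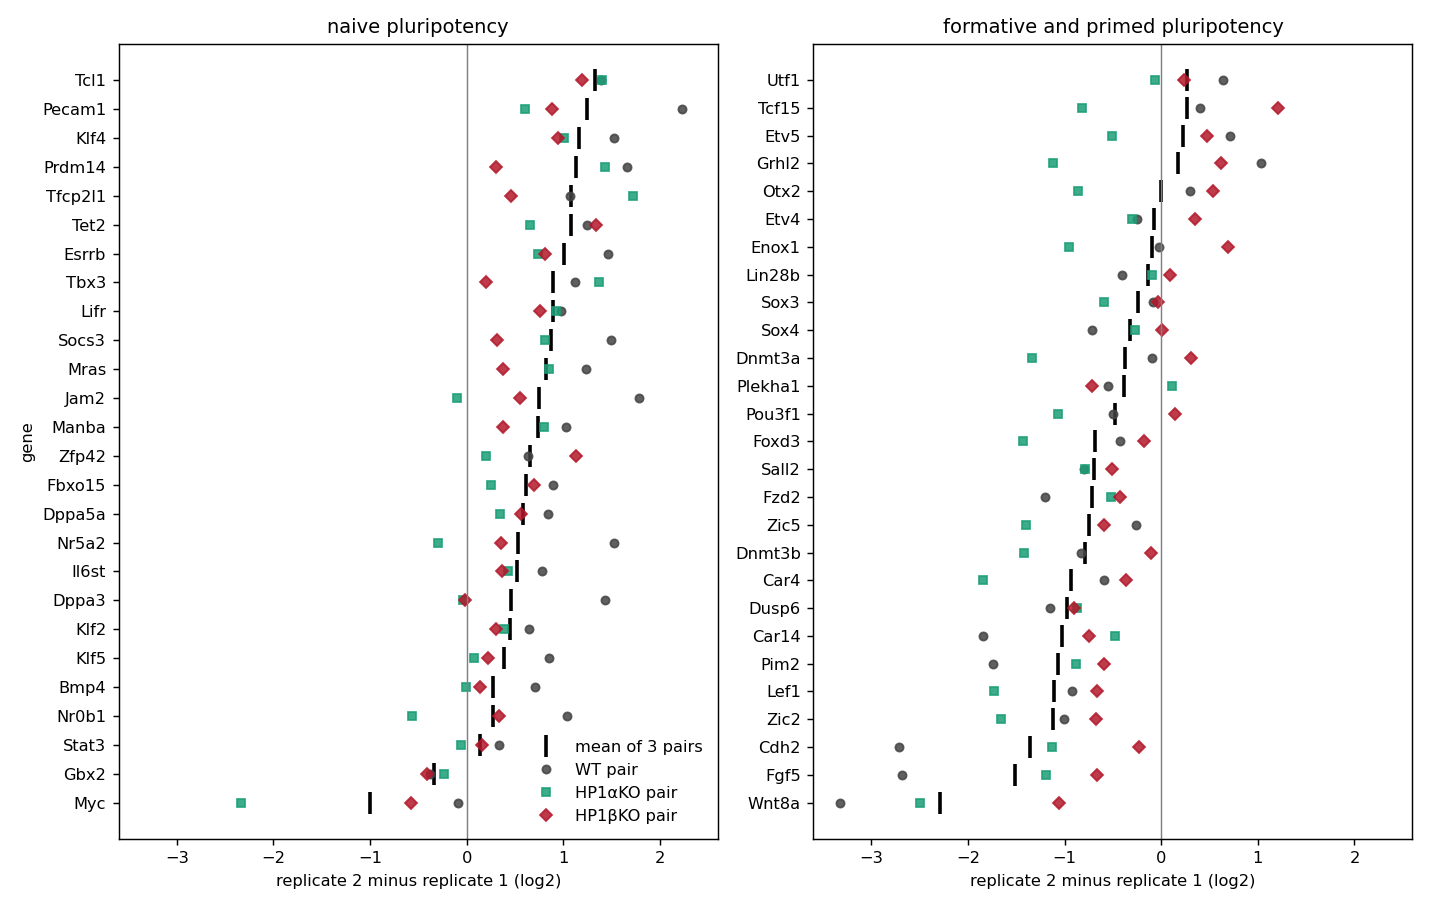
Replicate 2 minus replicate 1 on the log2 scale for each tested naive (26) and formative or primed (27) gene, with 1 point per genotype pair and a tick for the mean of 3 pairs. Most naive means lie right of 0 (24 of 26) and most formative means left of 0 (23 of 27), and the HP1bKO points of the formative panel sit nearer 0 than the others for many genes, with a median of -0.18.

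Of the primitive streak and Wnt lists, Sp5 alone passed the test. All 14 tested streak genes had a negative mean difference, with a median of -0.88. Among them 1 fell and 8 were lower without overlap, beside 11% of all tested genes. Of the 14, 5 were under the floor on all replicate 2 arrays and passed the filter through replicate 1, which favours a negative sign, and the median was -0.59 over genes above the floor on all 6 arrays and -0.62 with no filter. The pair medians ran from -1.74 in WT through -0.82 in HP1aKO to -0.24 in HP1bKO. Sp5, a transcription factor gene induced directly by Wnt signalling, measured 6.19, 6.08 and 7.64 in replicate 1 and 4.60, 4.63 and 5.37 in replicate 2 (-1.77, SE 0.20, adjusted p = 0.0333). Sp5 was under the floor on all 3 replicate 2 arrays, and its difference was largest in the HP1bKO pair, where that of the streak list was smallest. Wnt3, the ligand needed for streak formation, measured 5.96, 5.64 and 6.83 against 4.21, 4.89 and 4.78 (adjusted p = 0.0702). Eomes, a T-box factor of mesoderm and endoderm, measured 7.36, 7.01 and 8.43 against 4.59, 5.16 and 7.14 (-1.97, adjusted p = 0.0505). Its HP1bKO replicate 2 value lay within the range of the replicate 1 arrays. Of 15 tested Wnt targets and antagonists, which include Sp5, Wnt3, Wnt8a and Lef1, 1 fell and the median was -0.63. Without overlap 9 of the 15 were lower, beside 11% of all tested genes. Of the 15, 5 were under the floor on all replicate 2 arrays and passed the filter through replicate 1, which favours lower values and less overlap. The Wnt median was -0.38 with no filter and -0.23 over the genes above the floor on all 6 arrays. In the HP1bKO pair it was also -0.23.

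Secreted regulators of the TGF-beta family and their targets were among the falls. Fst, which encodes the activin antagonist follistatin, measured 9.29, 8.68 and 8.43 in replicate 1 and 5.53, 5.62 and 6.02 in replicate 2 (-3.08, SE 0.26, adjusted p = 0.0317). The lowest replicate 1 value was more than 2 log2 units above the highest replicate 2 value. Inhba, which encodes the activin A subunit that follistatin binds, fell by 1.5 (adjusted p = 0.0367), and all its replicate 2 values, 3.87 to 4.06, were under the floor. Id2, an inhibitor of basic helix-loop-helix factors induced by BMP, measured 7.67, 7.85 and 7.88 against 6.34, 6.14 and 6.25 (-1.55, SE 0.15, adjusted p = 0.0317). The values of Id2 were nearly equal within each set. Id3 was lower without overlap at -1.06 (adjusted p = 0.0702), Id1 overlapped at -0.74, and the 12 tested BMP and Id genes had 1 fall, 3 genes lower without overlap, 1 higher and a median of -0.13. Over all tested genes 11% were lower and 15.8% higher without overlap. None of 16 Nodal pathway genes was called, and their median was -0.01. Sema6a and Efnb2, which encode the guidance ligands semaphorin 6A and ephrin B2, fell by 1.56 and 1.5.

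Interferon-related genes had no common direction. Stat2, a transcription factor of the type I interferon response, measured 6.38, 6.39 and 6.02 in replicate 1 and 7.90, 7.67 and 7.10 in replicate 2 (1.29, SE 0.16, adjusted p = 0.0391). Irgm1 and Gbp2b, interferon-induced GTPases from families with closely related members, fell by 2.19 and 1.76 (adjusted p = 0.0317 and 0.0333). Irgm1 measured 7.55, 8.06 and 8.25 in replicate 1 and 5.81, 5.39 and 6.10 in replicate 2. Neither belonged to the list of 16 tested interferon and antigen presentation genes, of which Stat2 alone was called, 5 were lower without overlap and the median was -0.27. Over all tested genes 11% were lower without overlap.

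Small nucleolar RNA (snoRNA) genes made up 10 of the 21 rises. snoRNAs guide chemical modification of ribosomal and other RNAs and are mostly cut from introns of host genes, many of which encode ribosomal proteins. This group was put together after its values were seen, so it gets no test as a group. Of 51 snoRNA genes on the array 44 were tested, 39 were higher without overlap in replicate 2, 1 (Snora16a, -0.65) was lower without overlap and the median was 1.09. Over all tested genes 15.8% were higher and 11% lower without overlap. Of the 44, 5 were under the floor on all replicate 1 arrays and passed the filter through replicate 2, which favours a positive sign. Of the 39, 30 were above the floor on all 6 arrays. The median was 1.04 over genes above the floor on all 6 arrays and 1.05 with no filter. Snord37, a box C/D snoRNA, measured 3.90, 4.04 and 5.05 in replicate 1 and 7.13, 6.73 and 7.00 in replicate 2 (2.62, SE 0.25, adjusted p = 0.0317). Snord73b measured 6.65, 6.67 and 6.99 against 8.41, 8.29 and 8.47 (1.62, SE 0.15, adjusted p = 0.0317). Snord37 crossed the floor between the sets, while Snord73b was above it on all 6 arrays. Snora69, Snord73a, Snord38a, Snora31 and Snord87 rose by 1.81, 1.73, 1.63, 1.49 and 1.29, and Snord15a, Snord42a and Snord35b also rose. Like Snord37, the genes Snora69, Snord73a and Snord38a were under the floor on all replicate 1 arrays and passed the filter through replicate 2. The sizes of these rises rest on dim signals.

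The mean snoRNA level was 6.78 to 7.08 in replicate 1, 7.82 to 8.07 in replicate 2 and 5.78 to 6.13 in EBs, and the pair medians were 1.39, 0.77 and 0.99. By RefSeq positions of GRCm38.p6, 24 of the 44 lay inside 1 other tested gene, which gave 20 host genes. The median difference was 1.18 for these snoRNAs and 0.01 for the hosts, whose differences ran from -0.20 to 0.60 with none called, and 22 of the 24 snoRNAs had a larger difference than their host. Of 56 tested ribosomal protein genes 1 rose (Rpl30, 1.27, adjusted p = 0.0431) and the median was 0.01. Small RNAs are recovered to an extent that depends on the RNA preparation, and no value of the files records that recovery. Its part in these differences was not tested.

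MicroRNA genes of 2 clusters are described together, of which only Mir17 passed the test. The Mir17 cluster (chr14:115043671-115044391, plus strand, GRCm38.p6) promotes proliferation, and the Mir302 cluster (chr3:127545228-127545807, plus strand) is expressed in pluripotent cells and is high in the primed epiblast. Each cluster was followed through 5 genes chosen by name, and each interval spans those 5 only, which need not be the whole cluster. The mature RNAs of RefSeq are shown with the seed, bases 2 to 8 from the 5′ end, in capitals, because the seeds of 4 of them, from both clusters, hold the same letters AAGUGC.
mmu-miR-17-5p: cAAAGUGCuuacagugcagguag
mmu-miR-20a-5p: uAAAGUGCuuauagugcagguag
mmu-miR-18a-5p: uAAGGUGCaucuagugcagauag
mmu-miR-19a-3p: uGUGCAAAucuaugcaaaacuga
mmu-miR-19b-3p: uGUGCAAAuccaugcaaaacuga
mmu-miR-302b-3p: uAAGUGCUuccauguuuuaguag
mmu-miR-302d-3p: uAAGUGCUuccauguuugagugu
mmu-miR-302c-3p: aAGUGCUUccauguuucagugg
mmu-miR-367-3p: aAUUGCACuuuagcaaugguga
miR-17-5p and miR-20a-5p share the seed AAAGUGC, miR-19a-3p and miR-19b-3p share GUGCAAA, and miR-302b-3p and miR-302d-3p share AAGUGCU. The array features stand for the genes and do not tell the mature RNA from its precursor.

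Mir17 measured 3.99, 3.77 and 4.88 in replicate 1 and 6.02, 5.26 and 6.22 in replicate 2 (1.62, SE 0.18, adjusted p = 0.0333). Mir17 was under the floor on all replicate 1 arrays and on the HP1aKO replicate 2 array. Mir19b-1 measured 4.95, 5.43 and 5.84 against 7.56, 6.60 and 7.60 (1.85, adjusted p = 0.0542), and Mir20a, Mir19a and Mir18 differed by 1.62, 1.52 and 1.39 with adjusted p of 0.0635, 0.0876 and 0.096. The 5 genes of this cluster that were followed were all higher without overlap, and Mir17 alone passed the test. Mir19a, like Mir17, was under the floor on all replicate 1 arrays and on the HP1aKO replicate 2 array. Mir17 and Mir19a passed the filter through replicate 2, which favours higher values and less overlap. On the WT replicate 1 array all 5 were under the floor. Mir302d measured 6.31, 5.20 and 7.33 in replicate 1 and 4.06, 5.04 and 5.18 in replicate 2 (-1.52, adjusted p = 0.148), and Mir302a measured 5.52, 4.34 and 7.23 against 3.65, 4.64 and 4.70 (-1.36, adjusted p = 0.238). The WT and HP1bKO pairs were more than 1 log2 unit lower in replicate 2 for all 5 Mir302 cluster genes, while the HP1aKO pair was nearly flat, with 4 of the 5 slightly higher in replicate 2, and none of the 5 was called. All 5 were under the floor on every replicate 2 array and passed the filter through replicate 1, which favours a negative sign. Both HP1aKO values of each of the 5 were under the floor, so the flat pair compares dim signals. Mir302b and Mir367 passed the floor on the HP1bKO replicate 1 array only (6.30 and 5.87), so that both of their values in the WT pair (4.90 and 3.15, 3.99 and 2.93) were under it. Over all 50 tested microRNA genes, a set also put together after its values were seen, the median was -0.08, with 8 higher and 5 lower without overlap. Of the 8, 1 was above the floor on all 6 arrays. Over all tested genes 15.8% were higher and 11% lower without overlap.

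**Figure D4:**
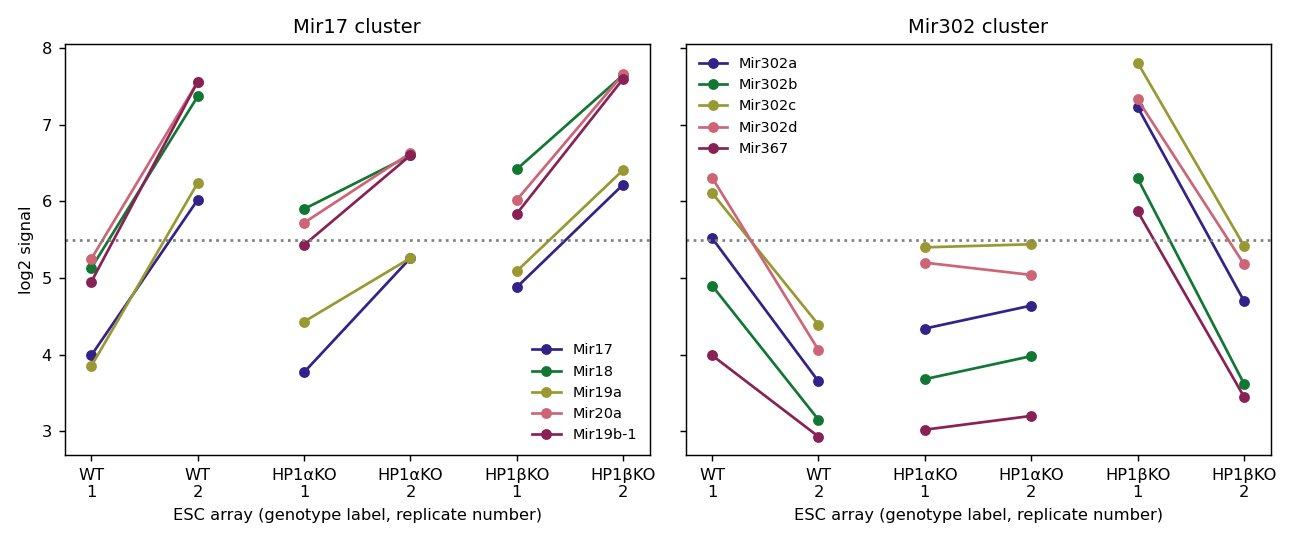
Log2 signal of the 5 Mir17 cluster genes and the 5 Mir302 cluster genes on the 6 ESC arrays, with lines joining replicate 1 to replicate 2 of a genotype label and a dotted line at the floor of 5.49. The 5 Mir17 cluster genes shown are higher in replicate 2 in all 3 pairs. The 5 Mir302 cluster genes shown are lower in the WT and HP1bKO pairs and nearly flat in the HP1aKO pair (Mir302a, 4.34 to 4.64). All values of these 5 genes in replicate 2 and in the HP1aKO pair lie under the dotted line.

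The remaining rises had no common role in the lists. Ano9, a membrane protein of the anoctamin family, measured 6.41, 6.92 and 6.43 in replicate 1 and 8.75, 8.45 and 7.79 in replicate 2 (1.74, SE 0.22, adjusted p = 0.0421). Tex14, needed for intercellular bridges of germ cells, rose by 1.51, the DNA helicase gene Pif1 by 1.38, Ubash3a, a suppressor of T-cell receptor signalling, by 1.36 and Gdap10 by 1.55. Pif1 was above the floor on all 6 arrays (5.85 to 6.52 against 7.27 to 7.77). Tex14, Ubash3a and Gdap10 were under it on all replicate 1 arrays and passed the filter through replicate 2. Of 38 cell cycle genes none was called, 15 were higher and 3 lower without overlap, and the median was 0.16. Over all tested genes 15.8% were higher and 11% lower without overlap. Ccnd2, encoding cyclin D2, was at -1.73 (adjusted p = 0.0702).

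Lists of other cell types and of metabolism held no call. The median was -0.41 for 19 extraembryonic endoderm genes, of which 6 were lower and 1 higher without overlap. Over all tested genes 11% were lower and 15.8% higher without overlap. Of the 19, 4 were under the floor on all replicate 2 arrays and passed the filter through replicate 1, which favours lower values. Medians were 0.04 for 12 trophoblast genes, -0.24 for 9 neural progenitor genes and -0.12 for 13 neuronal genes. Among 11 germline genes the median was 0.57 with 2 higher without overlap, neither of them above the floor on all 6 arrays. Of the 11, 3 were under the floor on all replicate 1 arrays and passed the filter through replicate 2. The 22 DNA methylation and heterochromatin factors had a median of 0.15 with 7 higher without overlap. The 24 imprinted genes had a median of -0.34. The medians of glycolysis (27 genes, 0.08), Atf4 targets (30 genes, -0.06), p53 targets (21 genes, -0.12), sterol synthesis (20 genes, 0.14), heat shock and unfolded protein response (24 genes, -0.01), histones (9 genes, -0.11) and oxidative phosphorylation (25 genes, 0.05) lay close to that of all genes. Most of these medians joined HP1aKO and HP1bKO pairs of opposite sign. In these pairs they were 0.58 and -0.25 for glycolysis, 0.31 and -0.38 for p53 targets and 0.235 and -0.22 for sterol synthesis. They were 0.18 and -0.25 for histones and -0.18 and 0.11 for Atf4 targets. Heat shock and oxidative phosphorylation had the same sign in both pairs. The FGF feedback list had 4 genes higher and 5 lower without overlap among 23, with a median of -0.19.

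The same comparison in the 6 EB arrays gave no called gene among 10271 tested by limma (0% of genes, with 86 at an unadjusted p under 0.05). Only 1.41% of genes did not overlap between EB replicate numbers, against 26.8% in ESCs, and the SD over genes of the EB pairs was 0.122 to 0.19. At least 2-fold differences numbered 454 higher and 351 lower genes in the ESC pair labelled WT, 345 and 193 in the HP1aKO pair and 96 and 193 in the HP1bKO pair, but at most 2 higher and 5 lower in any EB pair. Of the 59 genes called in ESCs, 37 were tested in EBs, 17 of these had the same sign there and none was called. A test of the difference between the ESC and EB contrasts over 10878 genes and all 12 arrays called 102 genes (0.938%), which include 56 of the 59. That fit uses again the ESC values by which the 59 were called, so the count of 56 follows largely from that calling. It also pools the spread of ESC and EB arrays, and the EB arrays varied less. For Thbs1 the ESC difference was -2.71 and the EB difference 0.13 (limma adjusted p of the difference 0.00123), and for Fst they were -3.08 and 0.21 (adjusted p = 0.0114).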

How the data were processed

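The authors deposited log2 signals per array feature, made from the arrays with Affymetrix Expression Console by RMA, with no version named in the sources. RMA subtracts background, quantile-normalizes all arrays together and summarises probes, so global shifts between arrays are removed. The number of arrays limits precision. Of 35556 features, 21789 carried 1 gene symbol in the platform annotation, 1621 several and 12146 none. Per gene, the feature with the highest mean over the 6 ESC arrays was kept (19938 genes), and 10114 genes above log2 of 45 on at least 1 array were tested. limma 3.58.1 in R 4.3.3 fitted genotype label as a block plus replicate number (lmFit and eBayes, 2 residual and 4.27 prior degrees of freedom), two-sided, with Benjamini-Hochberg adjustment and a threshold of 0.05. EB arrays were fitted likewise, and all 12 arrays for the difference between states. Script steps were tested on simulated data. "Without overlap" means that all 3 values of a set lay beyond all 3 of the other. Individually named genes were the 15 largest called rises and 15 largest called falls with the same sign in all 3 pairs and no overlap, plus listed genes and genes chosen for their role or after their values were seen. The comparison, its members and the lists were chosen with earlier results of these data known, and lists are described by counts and medians with no set test. Samples were grouped by their titles.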

Additional observations from a re-analysis of the deposited data

Results flagged for a closer look

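The difference of replicate 2 minus replicate 1 was not the same in ESCs and EBs for 102 of 10878 genes (limma, 12 arrays, adjusted p under 0.05). Of the 66 genes named or followed individually 40 were among them, with limma adjusted p from 0.00123 to 0.0489. Many of the 66 were picked for a large ESC difference, which this test uses again, so that count follows largely from the choice. Each value here is the ESC difference minus the EB difference on the log2 scale, and what separates the states was not tested. Among snoRNA and microRNA genes it was 3.07 for Snord37, 1.87 for Mir17, 1.85 for Snora21, 1.72 for Snord73a, 1.72 for Snora31, 1.68 for Snord38a, 1.66 for Snora69, 1.57 for Snord73b and 1.44 for Snord87. Among the other genes higher in ESC replicate 2 it was 1.80 for Ano9, 1.49 for Klf4, 1.46 for Rpl30, 1.41 for Tex14, 1.41 for Ubash3a, 1.38 for Pif1, 1.30 for Stat2 and 1.23 for Tcl1.

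Among matrix, fibroblast and actomyosin genes it was -3.24 for Tnc, -3.05 for Bgn, -2.84 for Thbs1, -2.64 for Col1a2, -2.42 for Lox, -2.09 for Thbs2, -1.93 for Fbln2, -1.74 for Cav1, -1.73 for Anxa1, -1.52 for Tagln, -1.43 for Timp3, -1.34 for Loxl1 and -1.27 for Ccn1. Among signalling, developmental and other genes it was -3.28 for Fst, -2.33 for Irgm1, -1.98 for Ptgs2, -1.94 for Eomes, -1.91 for Nt5e, -1.81 for Igfbp7, -1.79 for Gbp2b, -1.77 for Sp5, -1.72 for Wnt3 and -0.96 for Dusp6.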

How the results depend on the processing

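The count of 59 called ESC genes (21 higher, 38 lower) became 67 without the genotype block (36 higher, 31 lower, 36 shared), 87 (48 higher, 39 lower) with signal above the floor on all 6 arrays, 66 to 77 with a floor of 100, no filter, the mean of features or array weights, 146 (56 higher, 90 lower) with arrays centred on their medians and 191 (100 higher, 91 lower) with an intensity trend and robust prior. Leaving out 1 pair gave 0 to 62 calls. The rule of at least 1.5-fold the same way in all 3 pairs, with no test, gave 274 (134 higher, 140 lower), which include all 59. Fits without the libraries labelled ESC WT 2 and ESC HP1aKO 2, chosen after seeing the data, called 0 genes (491 at an unadjusted p under 0.05), with 2 fewer arrays, and the HP1bKO pair alone gave list medians of -0.71 for feeder fibroblast, -0.18 for formative and primed and -0.23 for Wnt genes. The Wnt median was also -0.23 over genes above the floor on all 6 arrays. The EB count was 0 to 1 and the count for the ESC and EB difference 81 to 324 with 1 pair left out. Of 753 values of 66 genes under the alternatives, 571 kept sign and call, 131 lost and 42 gained the call, and 9, called in neither, changed sign. All 59 called genes kept their sign without each pair, which their calling on all 3 pairs largely fixes. Of the 59, 0 were called in all 3 such fits. The cause of these changes was not tested. No paired analysis was possible by replicate number because that number is the term compared, and the reported fit pairs the arrays by genotype label instead.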
